A study of Mus musculus with 6 samples.

Results

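Pattern recognition receptors are the germline-encoded sensors with which innate cells detect microbes and the debris of injured tissue. Toll-like receptors sit in the plasma membrane or in endosomes and signal through adaptors such as Myd88 to NF-kB. C-type lectin receptors bind sugars, glycolipids or proteins and signal through Syk and Card9 or, with inhibitory tails, against them. NOD-like receptors and the Mavs and Tmem173 (STING) pathways watch the cytosol. The genes of these families, with their co-receptors and adaptors, were compared between fat before grafting and fat grafts at day 7. Members were protein-coding genes of the deposited table whose symbols begin with or equal the family names (Tlr, Clec, Nlrc, Nlrp, Nlrx, Nod1, Nod2, Fpr2, Fpr3, Cd14, Ly96, Myd88, Irak, Ticam, Tirap, Card, Marco, Cd209, Colec, Ddx58, Mavs and Tmem173). Clec4d, Clec7a, Clec9a, Clec10a, Clec11a, Nlrp3 and Cd209a were left out by rule. Of 73 symbols that matched, these 7 and the pseudogene Nlrp1c-ps were not members, which left 65 of 12163 listed genes. The rule names 92 annotated protein-coding genes, and the 27 that the table does not list, among them Tlr5, Tlr9, Irak1, Marco, Ddx58 and Clec14a, were not analysed here.

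Both groups were fat tissue, and all mice were wild type on the inbred strain C57BL/6. There were 3 libraries before grafting and 3 libraries of day 7 grafts, called biological replicates by the submitters. Whether each came from a mouse of its own is not stated, so p-values measure the spread between these libraries. Depot, graft site, sex and age are not in the labels, which also do not say whether donor and host cells of a graft can be told apart. Levels are normalized counts (the reads of a gene over one scaling factor per library), and the listed genes took 13027776 to 15924559 reads per library. Means are given ± SD with n = 3 per group, and fold changes are log2 of grafts over before grafting from limma on log2(value + 1), called at a Benjamini-Hochberg adjusted p under 0.05. The table appears to hold genes selected for a difference: of all 10854 tested genes 80.4% were called, 41.3% higher and 39.2% lower, and the groups did not overlap for 97.6%. In bulk tissue, fewer cells of a type and less RNA per cell cannot be told apart. Summed adipocyte markers (8 genes) were 224443 to 308551 before grafting and 5477 to 20045 in grafts, highest in graft replicate 1.

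Of the 65 members, 63 passed the filter on low values. Limma called 35 higher (55.6%) and 22 lower (34.9%) in grafts, and 6 were not called. The 57 calls make 90.5% of the tested members, against 80.4% of all tested genes, and the groups did not overlap for 62 of 63 (98.4%). With adjustment over tested genes only, the 6 uncalled members (Tlr3, Ticam1, Clec2g, Nlrx1, Nod1 and Nlrc5) were called too. That gave 39 members higher and 24 lower, beside 5461 higher and 5308 lower of all 10854 tested genes. The median log2 fold change of tested members was 1.17, beside 0.28 over all tested genes, and with no filter on low values the medians were 1.21 for members and -0.30 for all 12163 listed genes. Members ranged from -6.75 (Cd209b) to 10.09 (Clec4e). Directions differed between and within families. Most receptors of the Clec4 cluster, most Toll-like receptors and their adaptors were higher in grafts, while the Cd209 genes, 2 Toll-like receptors, Card6 and Card10 were lower.

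**Figure D1:**
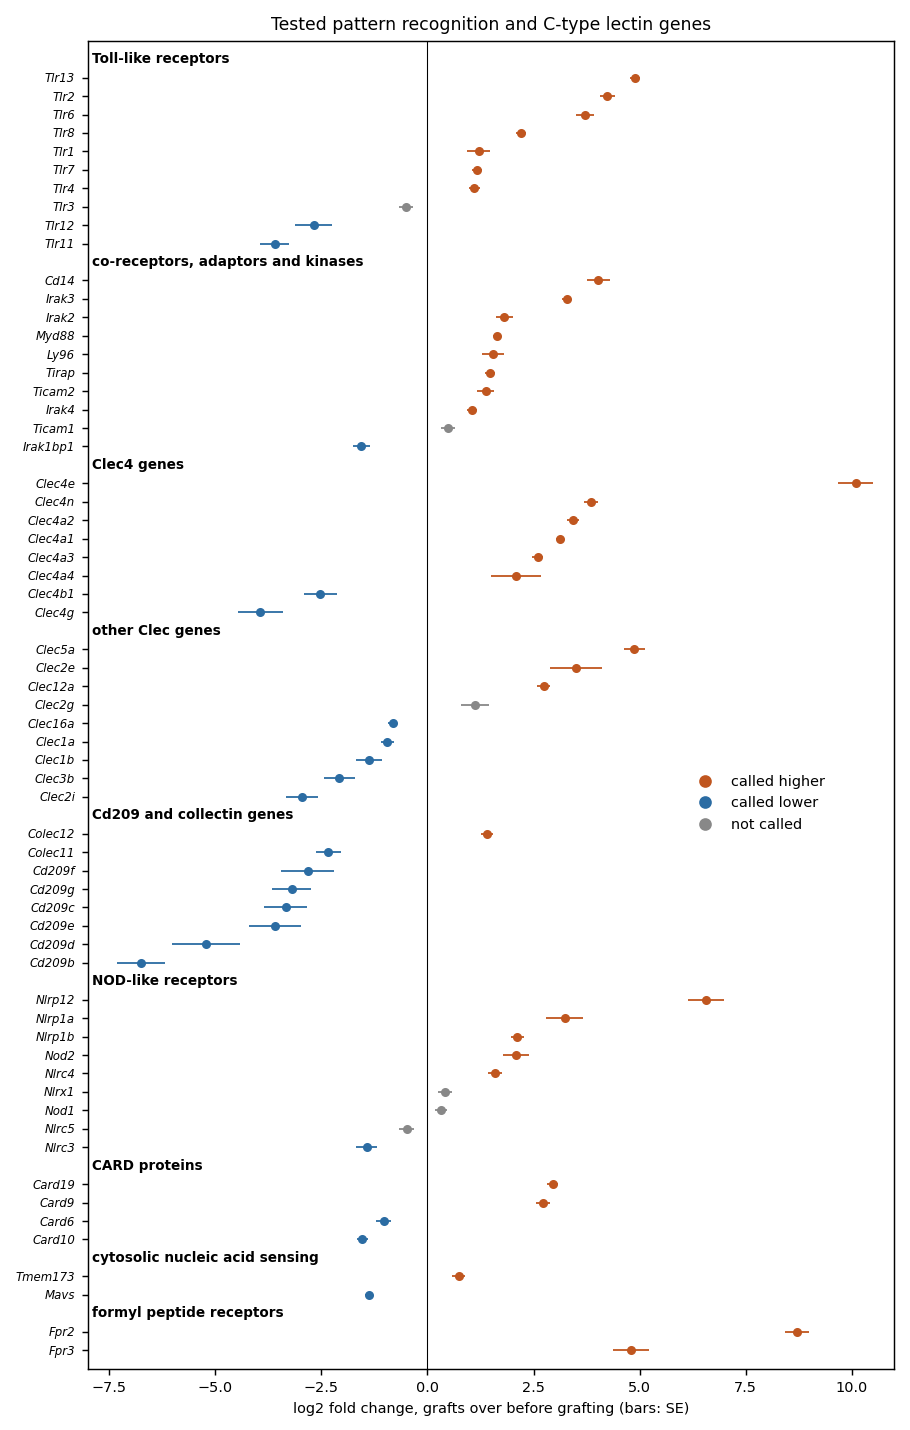
Log2 fold change (grafts over before grafting, x axis) of the tested members but 1, grouped by role, with bars for the SE and colours for the limma call. The points range from -6.75 for Cd209b to 10.09 for Clec4e, and 6 grey points were not called. The points of Clec4g, Fpr3 and Clec2e rest on 1, 0 and 5 reads in one group and depend on the pseudocount.

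The promoters of the members with the largest changes are shown because these genes lie at opposite ends of the family. Each sequence is the 250 bases before the most upstream RefSeq start (GRCm38.p6), written 5′ to 3′ on the gene's strand. They lie at chr6:123289872-123290121, minus strand for Clec4e, chr17:17887574-17887823, plus strand for Fpr2 and chr8:3926842-3927091, minus strand for Cd209b. Capitals mark matches, on either strand, to GAGGAA (the ETS core with the flank that PU.1, the myeloid master regulator, prefers) or to TTNNGNAA (a C/EBP pattern). The AP-1 pattern TGANTCA and, at 10 letters each, an NF-kB and an IRF pattern were also searched on both strands and have no match in these 3 windows.
Clec4e: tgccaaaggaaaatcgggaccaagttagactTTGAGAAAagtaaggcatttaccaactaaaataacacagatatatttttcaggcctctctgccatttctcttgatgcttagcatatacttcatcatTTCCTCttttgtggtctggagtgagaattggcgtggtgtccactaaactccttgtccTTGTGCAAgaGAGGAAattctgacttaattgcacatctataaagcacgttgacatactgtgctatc
Fpr2: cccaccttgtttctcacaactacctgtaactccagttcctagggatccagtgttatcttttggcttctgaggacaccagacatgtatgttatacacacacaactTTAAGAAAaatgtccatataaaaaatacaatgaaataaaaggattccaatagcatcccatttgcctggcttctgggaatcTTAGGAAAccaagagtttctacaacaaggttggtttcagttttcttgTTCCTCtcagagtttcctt
Cd209b: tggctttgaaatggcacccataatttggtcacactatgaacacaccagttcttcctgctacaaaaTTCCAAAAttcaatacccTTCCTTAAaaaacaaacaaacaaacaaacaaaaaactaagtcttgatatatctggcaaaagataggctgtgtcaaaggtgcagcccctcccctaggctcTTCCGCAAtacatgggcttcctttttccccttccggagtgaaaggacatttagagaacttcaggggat
The Clec4e window holds 2 matches to GAGGAA and 2 to TTNNGNAA, the Fpr2 window 1 and 2, and the Cd209b window 0 and 3. Such a window was found for 51 members, 26 of them called higher and 18 called lower. Close copies were counted separately: Fpr2 and Fpr3 had the same match counts, as had Nlrp1a and Nlrp1b. The annotated genes Fpr2 and Fpr3 start at 17887824 and 17887852 on the plus strand of chromosome 17. Their windows may therefore hold largely the same bases, counted more than once among the higher members. The windows are thus not all independent. GAGGAA stood in 11 of 26 windows of higher members (42.3%), in 4 of 18 of lower members (22.2%) and in 23.1% of 27025 windows of all genes. TTNNGNAA stood in 15 of 26 (57.7%), 7 of 18 (38.9%) and 37.0%. For TGANTCA the shares were 7.69%, 11.1% and 6.85%, for the IRF pattern 3.85%, 16.7% and 3.05%, and for the NF-kB pattern 0 of 26, 0 of 18 and 1.41%. A match is a string of letters, not a measured binding site, and sites spelled otherwise were not counted.

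Among the 10 listed Toll-like receptors, 7 rose, 2 fell and 1 was not called (90.0% called, against 80.4% of all tested genes). Those that rose most were Tlr13, an endosomal sensor of bacterial ribosomal RNA, and Tlr2 and Tlr6, which pair at the cell surface to sense bacterial lipopeptides. Tlr13 held 137.1, 111.4 and 129.8 normalized counts before grafting and 3957, 3787 and 3538 in grafts. Tlr2 held 250.5, 169.2 and 234.1 normalized counts before grafting and 3433, 4810.1 and 4105 in grafts. Tlr6 held 83.8, 63.8 and 55.1 normalized counts before grafting and 684.9, 943.6 and 1070.3 in grafts. In each case the groups were far apart and the 3 grafts lay within 1.56-fold of each other, with log2 fold change 4.89, SE 0.11, adjusted p = 5.27e-07 for Tlr13. The corresponding log2 fold changes were 4.24 (SE 0.18) for Tlr2 and 3.71 (SE 0.22) for Tlr6. Tlr8, an endosomal sensor of single-stranded RNA, rose from 223.7 ± 25.4 to 1035 ± 61.7 normalized counts (grafts 1034, 1097 and 973.4, before grafting 249.5, 222.9 and 198.7).

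Tlr4, the receptor for bacterial lipopolysaccharide, had a smaller log2 fold change than its co-receptor Cd14. Tlr4 held 834.2, 641.3 and 680.7 normalized counts before grafting and 1373, 1788 and 1508 in grafts, a 2.17-fold difference (log2 fold change 1.11, SE 0.14, adjusted p = 0.00071). Tlr7 and Tlr1 rose, with log2 fold changes of 1.17 and 1.21. Tlr1 was lowest before grafting in replicate 2, at 304.9 against 557.1 and 571.5, and was not called without graft replicate 3 (1.07), with equal listed totals (1.08) or without trend and robust fitting. Tlr3, the endosomal receptor for double-stranded RNA, had 356.0, 477.1 and 471.2 before grafting and 297.3, 340.4 and 272.0 in grafts. Its groups did not overlap, but it was not called (-0.51, adjusted p = 0.0728). It was called lower under each of 4 other scalings, at -0.63 to -1.21, and without replicate 1 before grafting, at -0.65.

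Tlr11 and Tlr12, which together sense profilin of protozoan parasites and are not working genes in humans, went the other way. Tlr11 held 158.8, 99.3 and 107.2 normalized counts before grafting and 6.0, 10.7 and 10.9 in grafts (log2 fold change -3.60, SE 0.34, adjusted p = 0.000137). Tlr12 held 106.5, 52.7 and 71.8 normalized counts before grafting and 6.0, 11.6 and 16.8 in grafts (log2 fold change -2.68, SE 0.43, adjusted p = 0.00277). All grafts lay below all libraries before grafting for both genes. Per kilobase of gene model, which allows levels of different genes to be compared, the order of the Toll-like receptors changed. Before grafting the means of Tlr1 (142.8 normalized counts per kb) and Tlr4 (129.4) led, and their libraries overlapped. In replicate 2 before grafting Tlr1 (91.13) stood below Tlr4 (115.4) and just below Tlr3 (91.63). In grafts Tlr2 (1366) and Tlr13 (873.8) led, and each graft library had both above every other listed Toll-like receptor. Tlr2 and Tlr13 together made 13.7 to 15.1% of the summed Toll-like receptor level before grafting and 59.6 to 63.5% in grafts. The sum itself went from 597.0 to 778.4 before grafting to 3416 to 3898 normalized counts per kb in grafts.

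**Figure D2:**
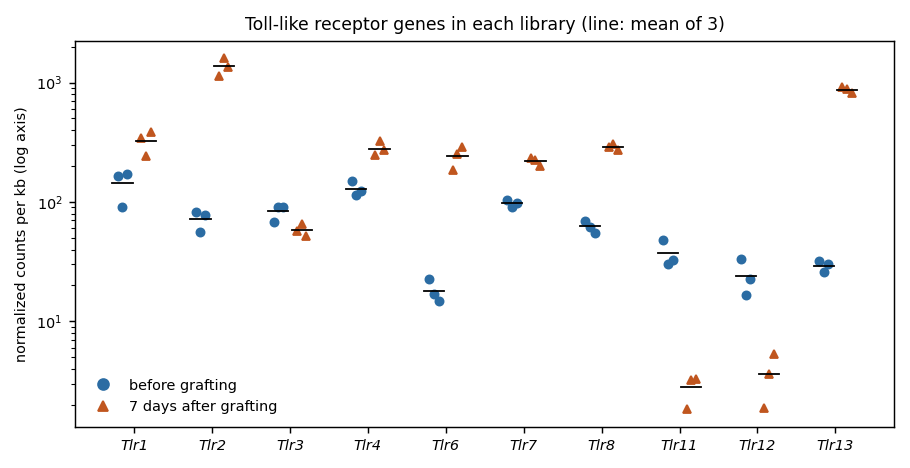
Normalized counts per kb of gene model (log axis) of the 10 listed Toll-like receptors in each library, with circles before grafting, triangles for grafts and a line at the mean of 3. Tlr13 and Tlr2 in grafts stand above the other receptors, while Tlr11 and Tlr12 lie at or below 5.29 normalized counts per kb in grafts.

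The co-receptors, adaptors and kinases of Toll-like receptors comprised 10 members, of which 8 rose, 1 fell and 1 was not called. Their called share was 90.0%, against 80.4% of all tested genes. Cd14 held 931.8, 1185 and 643.3 normalized counts before grafting and 11085, 19955 and 13779.5 in grafts (log2 fold change 4.02, SE 0.27, adjusted p = 2.46e-05). Cd14 hands lipopolysaccharide to Tlr4, and all 3 grafts lay far above all libraries before grafting. Ly96 (MD-2), the subunit of Tlr4 that binds lipopolysaccharide, rose from 83.8, 77.0 and 46.2 to 214.9, 163.9 and 215.6 normalized counts. The 3 parts of the lipopolysaccharide receptor had log2 fold changes of 4.02 (Cd14), 1.54 (Ly96) and 1.11 (Tlr4).

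The kinase genes differed in size of change. Irak3 (IRAK-M), a member without kinase activity that restrains the pathway, rose the most. Irak3 held 400.3, 348.5 and 342.3 normalized counts before grafting and 3540.2, 3473 and 3567 in grafts, with an SD of 48.6 in grafts (log2 fold change 3.28, SE 0.10, adjusted p = 8.68e-07). Irak2 held 602.5, 719.3 and 662.0 normalized counts before grafting and 1624, 2796 and 2710.4 in grafts (log2 fold change 1.81, SE 0.20, adjusted p = 0.000419). Irak4, the first kinase of the chain, rose by 1.06 (SE 0.12), from a mean of 387.1 to 808.2. Per kb, Irak3 stood at 98.9 normalized counts before grafting, below Irak2 (149.9), and at 959.4 in grafts, above Irak2 (538.7). Irak1bp1, named for its binding to Irak1, fell: 424.0, 456.9 and 403.3 before grafting and 107.5, 162.0 and 172.1 in grafts (log2 fold change -1.56, SE 0.20, adjusted p = 0.000741).

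Of the adaptors, Myd88, used by most Toll-like receptors and by the interleukin 1 receptor, rose evenly. Myd88 held 526.5, 523.7 and 475.1 normalized counts before grafting and 1542, 1579 and 1591 in grafts, which is 3.09-fold (log2 fold change 1.63, SE 0.09, adjusted p = 1.1e-05). Tirap, which brings Myd88 to the membrane, rose by 1.48 (SE 0.12). Ticam2 (TRAM), the bridge from Tlr4 to Ticam1, held 85.8, 63.8 and 63.9 before grafting and 167.7, 202.7 and 186.0 in grafts (1.38, SE 0.20), although 838 of its annotated exon bases are shared on the same strand with Tmed7. Ticam1 (TRIF), the adaptor of Tlr3, had 220.9, 182.3 and 190.8 before grafting and 263.1, 334.6 and 245.3 in grafts. Ticam1 was not called (0.49, adjusted p = 0.107). With limma p-values adjusted over tested genes only, Ticam1 was called higher (adjusted p = 0.0209). Exons on the opposite strand overlap those of Myd88 (Acaa1a, 290 bases), Irak4 (Twf1, 395 bases), Irak3 (Tmbim4, 192 bases), Irak2 (Gm43963), Tirap (Gm39318, Srpr), Tlr3 (Gm45542), Nlrx1 (Gm10686), Nlrc5, Nlrp12, Card9 and Clec4g. Whether counting used strand is not stated, so reads of such partners could not be told apart. With the libraries scaled so that ribosomal protein genes show no change on average, Ticam1 turned to -0.20, and Tlr4 (0.42), Ly96 (0.85), Irak4 (0.36), Ticam2 (0.69) and Tlr1 (0.51) were no longer called.

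Of 32 other genes of Toll-like receptor and interleukin 1 receptor signalling, 21 were listed and tested, and 19 rose, with a median log2 fold change of 1.08. These calls make 90.5% of the tested genes of the list, against 80.4% of all tested genes. The other 2, Rel (0.64, adjusted p = 0.0995) and Irf3 (-0.38, adjusted p = 0.0739), were not called. The 3 with the largest rises were Nfkbiz (3.81), which encodes a nuclear cofactor of NF-kB, and the feedback inhibitors Tnfaip3 (3.55) and Nfkbia (3.09). The NF-kB subunit genes Nfkb2, Rela and Nfkb1 had 1.65, 0.89 and 0.82. Scaled to ribosomal protein genes, 9 of the 21 were called higher and 1 lower.

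The Clec4 genes held the largest rise of any member. Clec4e (Mincle), which detects mycobacterial glycolipids and a protein released by dying cells, was close to absent before grafting. Clec4e held 18.7, 5.1 and 13.8 normalized counts before grafting and 9859, 15567 and 15025 in grafts (log2 fold change 10.09, SE 0.41, adjusted p = 4.17e-06). The ratio of means was 1077, with 38 reads in all behind the level before grafting. Clec4n (Dectin-2), a receptor for fungal mannans that shares the Fcer1g signalling chain with Clec4e, was already present. Clec4n held 257.4, 192.5 and 236.1 normalized counts before grafting and 2916, 3987 and 3047 in grafts (log2 fold change 3.85, SE 0.16, adjusted p = 2.93e-06).

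Clec4a2 (DCIR), a receptor with an inhibitory tail, rose from 201.1 ± 2.2 to 2207 ± 455.7 normalized counts. Its libraries held 200.2, 199.6 and 203.6 before grafting and 2704, 1808 and 2111 in grafts (log2 fold change 3.43, SE 0.15, adjusted p = 3.5e-06). Clec4a1 held 323.4, 301.9 and 338.4 normalized counts before grafting and 2898, 2601 and 2916 in grafts (3.12, SE 0.10), and Clec4a3 rose by 2.60 (SE 0.13). The 4 Clec4a genes are close copies of one another. The sources used here do not say how shared reads were assigned, and the levels of single copies are uncertain. Clec4a4 was low, 3.9, 6.1 and 1.0 before grafting and 10, 22.3 and 19.8 in grafts, and its call (2.09, adjusted p = 0.045) was lost without replicate 1 (2.22) or 3 (1.56) before grafting, without graft replicate 2 (1.88) or 3 (1.96), with 3 of 4 other scalings, with a pseudocount of 0.5, without trend and robust fitting, and with the replicate number as a block (adjusted p = 0.0776). Both activating and inhibitory receptors of this cluster rose.

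The other 2 of 8 Clec4 members fell. Clec4b1 (DCAR), an activating relative of the Clec4a genes, held 57.2, 103.3 and 77.7 before grafting and 21.1, 10.7 and 8.9 in grafts (log2 fold change -2.52, SE 0.39, adjusted p = 0.00239). Clec4g (LSECtin), a receptor of sinusoidal endothelium, had 58 reads in all before grafting and 1 read in grafts, a ratio of 58.4 with a 95% exact binomial interval of 10.1 to 2350 that covers counting error only. On chromosome 6 (GRCm38) the 7 Clec4 members lie between 122921848 and 123289870 in the order Clec4a1, Clec4a3, Clec4a4, Clec4b1, Clec4a2, Clec4n and Clec4e. All but Clec4b1, the fourth in the row, rose. Clec4g lies apart, on chromosome 8 beside the Cd209 genes.

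**Figure D3:**
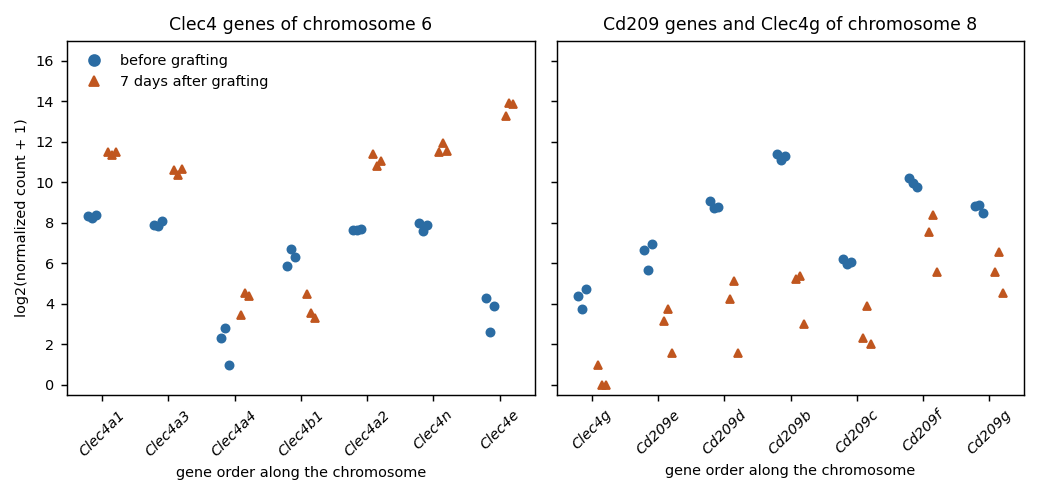
Log2(normalized count + 1) of each library for the Clec4 members of chromosome 6 (left) and for Clec4g and the Cd209 members of chromosome 8 (right), in gene order, with circles before grafting and triangles for grafts. On the left 6 of 7 genes are higher in grafts, and on the right all 7 are lower.

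Of the 10 other Clec members, 9 were tested, 3 rose, 5 fell and 1 was not called (88.9% called, against 80.4% of all tested genes). Clec5a (MDL-1), an activating receptor of myeloid cells that couples to Tyrobp, rose: 48.3, 30.4 and 59.0 before grafting and 1081, 1524 and 1403 in grafts (log2 fold change 4.87, SE 0.25, adjusted p = 8.15e-06). Clec12a held 176.5, 141.8 and 209.5 normalized counts before grafting and 1173, 1092 and 1234 in grafts (log2 fold change 2.74, SE 0.16, adjusted p = 1.13e-05). Clec12a is an inhibitory myeloid receptor for uric acid crystals, so an activating and an inhibitory receptor rose here as well. Clec2e was low, at 1.0, 4.1 and 0.0 before grafting and 22.1, 28.1 and 20.8 in grafts. Its log2 fold change of 3.50 rests on 5 reads before grafting. It was 4.12 without replicate 2 before grafting (mean 0.5 in place of 1.7), 2.95 without replicate 3, 4.0 with a pseudocount of 0.5 and 2.14 with a pseudocount of 5, and was called in each case.

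Clec3b encodes tetranectin, a secreted plasminogen-binding protein rather than a receptor, and was the most abundant Clec member before grafting. Clec3b held 3609, 4089.6 and 2461 normalized counts before grafting and 896.9, 1238 and 438.2 in grafts (log2 fold change -2.07, SE 0.37, adjusted p = 0.00567). Graft replicate 3 was the lowest, yet the groups did not overlap. Clec2i, a ligand of NK cell lectin receptors, held 524.6, 272.5 and 588.2 before grafting and 78.3, 62.1 and 34.6 in grafts (log2 fold change -2.96, SE 0.38, adjusted p = 0.000781). The endothelial lectin gene Clec1a fell, at a log2 change of -0.94 (422.0, 379.9 and 514.4 before grafting and 235.0, 217.2 and 229.5 in grafts). Clec1b (CLEC-2), the podoplanin receptor of platelets, had 56.2, 37.5 and 48.2 before grafting and 14.1, 19.4 and 18.8 in grafts. Its call (-1.38, adjusted p = 0.014) was lost without replicate 1 (-1.25) or 3 (-1.36) before grafting and with the replicate number as a block (adjusted p = 0.0586), and 184 exon bases are shared with Clec9a. Clec16a, an autophagy regulator, fell: its log2 value changed by -0.82 (SE 0.11). Clec2g was not called (1.12, adjusted p = 0.0541; 1.42 and called without graft replicate 1), and Clec2l, with 1 read before grafting and 15 in grafts, was not tested.

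Per kb, the make-up of the Clec members changed. Clec4d, Clec7a, Clec9a, Clec10a and Clec11a, left out by rule, are not in these sums. Clec3b made 67.1 to 80.2% of the summed Clec level before grafting and 4.33 to 11.1% in grafts. Clec4e, Clec4n, Clec4a1, Clec4a2 and Clec4a3 together made 11.1 to 17.9% before grafting and 81.8 to 88.2% in grafts. Clec4e alone went from at most 0.0791% to at least 20.7%. Among these members the per-kb means of Clec4e (2716) and Clec4n (2335) led in grafts. In graft replicate 1 Clec4n stood above Clec4e, with 21.4% against 20.7%.

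The signalling partners of these receptors were mostly higher. Of 17 genes of ITAM and Card9 signalling, 14 were listed and tested, and 11 rose, with a median log2 fold change of 1.55. The called share was 78.6%, against 80.4% of all tested genes. The adaptor chains Fcer1g (3.44, SE 0.09) and Tyrobp (3.33, SE 0.09) rose the most, followed by Lcp2 (2.30), which links Syk to downstream enzymes. Syk, the kinase that both chains recruit, rose by 1.57. Nfatc1 (0.50), Plcg2 (0.61) and Malt1 (0.78) were not called. Card9 and its partner Bcl10 had 2.73 and 1.52.

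All 6 Cd209 members fell, beside 39.2% of all tested genes. Cd209a is listed too but was left out by rule, and is not in the counts and sums of these members. These are the mouse relatives of human DC-SIGN, lectins for mannose and fucose on macrophages and dendritic cells. Cd209b (SIGN-R1), a dextran receptor of marginal zone macrophages, was the most abundant of the 6 before grafting. Cd209b held 2674, 2221 and 2521 normalized counts before grafting and 36.2, 39.8 and 6.9 in grafts (log2 fold change -6.75, SE 0.57, adjusted p = 0.000115), and the ratio of means before grafting to grafts was 89.5. Cd209d held 549.2, 418.4 and 433.8 normalized counts before grafting and 18.1, 33.9 and 2.0 in grafts (log2 fold change -5.21, SE 0.80, adjusted p = 0.00269). Cd209e held 101.6, 49.6 and 122.0 normalized counts before grafting and 8.0, 12.6 and 2.0 in grafts (-3.59, SE 0.61).

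Cd209c held 72.0, 60.8 and 65.9 before grafting and 4.0, 13.6 and 3.0 in grafts (-3.34, SE 0.50). Cd209g and Cd209f fell as well, with -3.19 (SE 0.46) and -2.82 (SE 0.62) on the log2 scale. Graft replicate 3 was the lowest and graft replicate 2 the highest of the grafts for all 6 genes. Graft means without graft replicate 2 were 116.1 for Cd209f (187.0 with it), 34.0 for Cd209g (54.0), 3.5 for Cd209c (6.9) and 5.0 for Cd209e (7.5), and that of Cd209d fell 1.79-fold. Without graft replicate 3 the log2 fold changes were smaller in size, at -5.99 for Cd209b, -4.17 for Cd209d, -2.97 for Cd209c, -2.96 for Cd209e, -2.67 for Cd209g and -2.03 for Cd209f, and all 6 were still called. Without graft replicate 2 they ranged from -7.17 for Cd209b to -3.43 for Cd209f. The call of Cd209f was lost without replicate 1 (-2.71) or replicate 2 (-2.82) before grafting. The 6 genes and Clec4g lie between 3707064 and 4137707 on chromosome 8 (GRCm38), and all 7 fell. The Cd209 genes too are close copies, so reads may have been assigned to the wrong copy.

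The summed counts of the 6 Cd209 members were 5024, 4236 and 4371 before grafting and 298.3, 522.8 and 82.2 in grafts. Their make-up per kb also shifted: Cd209b made 47.3 to 51.8% before grafting and 7.20 to 11.4% in grafts, and Cd209f 18.9 to 23.1% and then 62.5 to 63.4%. Most dendritic cell markers moved with them. Of 9 such markers 7 fell, Itgax rose and Batf3 was not called. None was at 0 in a whole group, and the list holds Cd209a, a relative of these genes. The dendritic cell sum was 2542 to 3645 before grafting and 901.9, 2037 and 919.0 in grafts 1, 2 and 3. Itgax, which went against the list, held 437.9, 1119.1 and 507.5 of these graft sums. Before grafting Itgax held 216.8 to 317.5. Graft replicate 2 was thus the highest graft in both sums. It was also the highest graft for summed B cell markers (221.0, 432.5 and 179.0 in grafts 1, 2 and 3), among other lists. Summed T and NK cell markers were 318.4, 726.4 and 415.5. The macrophage sum was highest in graft 1 and the neutrophil sum in graft 3. The part of dendritic cells, lymphocytes or other cells in the fall of the Cd209 genes was not tested.

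The collectins are soluble or membrane lectins with a collagen stem. Colec12, a scavenger receptor of stromal and endothelial cells, rose: 891.4, 818.5 and 833.1 before grafting and 1829, 2536 and 2479.9 in grafts (log2 fold change 1.41, SE 0.14, adjusted p = 0.000165). Colec11, a soluble activator of the lectin pathway of complement, fell: its log2 value changed by -2.33 (SE 0.30), from a mean of 51.3 to 9.5. The Cd209 and collectin genes as one role had a median log2 fold change of -3.27, the lowest of the roles.

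Among 10 NOD-like receptors, 9 were tested, 5 rose, 1 fell and 3 were not called. The called share was 66.7%, below the 80.4% of all tested genes. Nlrp12, a regulator of NF-kB in myeloid cells, was near 0 before grafting. Nlrp12 held 1.0, 3.0 and 3.0 normalized counts before grafting and 198.9, 307.4 and 429.3 in grafts (log2 fold change 6.56, SE 0.42, adjusted p = 1.87e-05), with 7 reads in all before grafting. Nlrp1b held 66.1, 62.8 and 69.8 normalized counts before grafting and 298.3, 283.2 and 293.8 in grafts (log2 fold change 2.12, SE 0.16, adjusted p = 4.03e-05). Nlrp1b encodes an inflammasome sensor. Its close copy Nlrp1a held 19.7, 6.1 and 10.8 before grafting and 90.4, 98.9 and 154.3 in grafts (3.23, SE 0.43).

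Nod1 and Nod2 sense fragments of bacterial peptidoglycan. Nod2 held 123.3, 68.9 and 106.2 normalized counts before grafting and 290.2, 584.8 and 422.4 in grafts (log2 fold change 2.09, SE 0.30, adjusted p = 0.00163). Nod1 held 1471, 1495 and 1215 normalized counts before grafting and 1476, 1786 and 1964 in grafts. Nod1 was the one tested member whose groups overlapped, and it was not called (0.32, adjusted p = 0.239). With limma p-values adjusted over tested genes only, Nod1 was called higher (adjusted p = 0.0468). Per kb Nod1 remained the higher of the pair, with means of 274.4 before grafting and 343.0 in grafts against 19.84 and 86.25 for Nod2. The difference between the 2 changes was not tested. Nlrc4, which with Naip proteins detects flagellin, rose: 126.2, 92.2 and 107.2 before grafting and 339.5, 337.5 and 300.7 in grafts (1.59, SE 0.17).

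Nlrx1, a mitochondrial member, had 288.9, 305.9 and 298.0 before grafting and 493.1, 337.5 and 376.9 in grafts and was not called (0.42, adjusted p = 0.163). Scaled to ribosomal protein genes, Nlrx1 turned to -0.28 and Nod1 to -0.38. With limma p-values adjusted over tested genes only, Nlrx1 was called higher (adjusted p = 0.032). Nlrc5, the activator of class I antigen presentation genes, was not called (-0.49, adjusted p = 0.143). It was called lower without graft replicate 2 (-0.65) and under 3 other scalings (-0.61 to -1.19). Nlrc3, a negative regulator found in T cells, fell: 525.6, 263.4 and 425.9 before grafting and 133.6, 154.2 and 143.4 in grafts (log2 fold change -1.43, SE 0.25, adjusted p = 0.00403). Nlrp6 had 0 reads before grafting and 17 in grafts (8.0, 1.0 and 7.9 normalized counts) and was not tested. Its graft mean was at least 1.89-fold higher with 3 reads in each library as the floor, and graft replicate 2 alone lay below that floor.

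Of 18 partners of NOD-like receptors and inflammasomes, 15 were listed and tested, 12 rose and 1 fell (median log2 fold change 1.43). Of the tested partners 86.7% were called, against 80.4% of all tested genes. The cytokine gene Il1b led with 10.78, followed by Mefv (5.76), the pyrin sensor, and Slc15a3 (5.05), an endosomal transporter of bacterial dipeptides that Nod receptors bind. Naip2, a partner of Nlrc4, had 2.63, and the common inflammasome genes Pycard, Casp1 and Gsdmd had 1.40, 1.42 and 1.43. Birc2, a ubiquitin ligase of the Nod pathway, fell by 0.63 on the log2 scale.

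Of the CARD proteins, Card9 and Card19 rose, and Card6 and Card10 fell. Card9 is the adaptor of Syk-coupled lectin receptors in myeloid cells. Card9 held 87.8, 89.1 and 75.7 normalized counts before grafting and 630.7, 484.9 and 587.6 in grafts (log2 fold change 2.73, SE 0.16, adjusted p = 1.32e-05). All 3 grafts lay above all libraries before grafting. Card19 held 260.3, 281.6 and 206.6 normalized counts before grafting and 1856, 2054 and 1861 in grafts (2.95, SE 0.13).

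Card10, a relative of Card9 in non-hematopoietic cells, held 936.7, 1069.8 and 831.2 before grafting and 353.5, 322.9 and 299.7 in grafts (log2 fold change -1.53, SE 0.13, adjusted p = 7.92e-05). Card6 fell as well, at -1.03 (SE 0.17): 607.4, 432.6 and 526.2 before grafting and 224.0, 293.8 and 243.3 in grafts. In grafts, summed markers of B cells (all 8 fell) were 179.0 to 432.5, against 6661 to 14043 before grafting. Those of T and NK cells (8 of 10 listed, all 8 fell) were 318.4 to 726.4 against 4234 to 7165. No listed marker of either list was at 0 in a whole group. Before grafting, replicate 2 had the lowest B cell, T and NK cell, dendritic cell, macrophage and neutrophil sums and the highest adipocyte sum. It was also the lowest of its group for 37 of the 65 members, among them Nlrc3 and Tlr1. The part of lymphocytes in the fall of Nlrc3 was not tested.

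**Figure D4:**
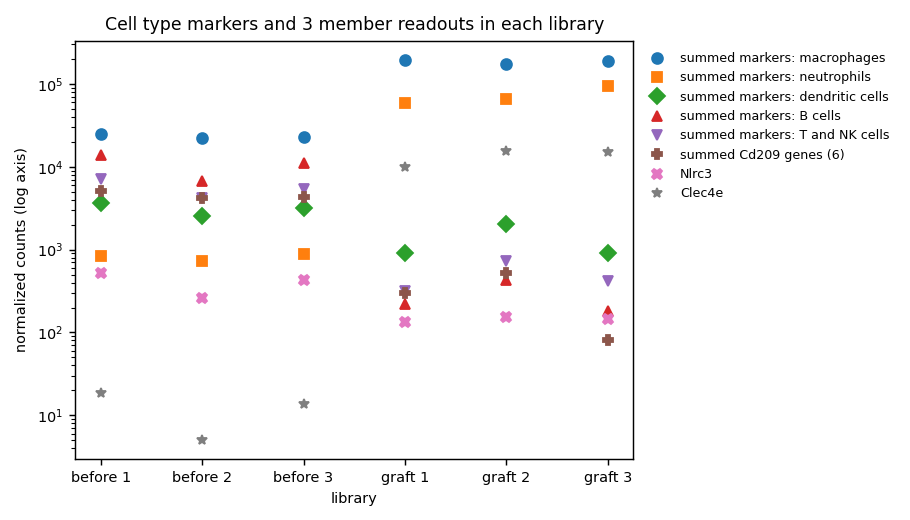
Normalized counts (log axis) in each library of summed markers of 5 cell types and of the 6 summed Cd209 members, Nlrc3 and Clec4e. Macrophage and neutrophil markers and Clec4e are higher in all 3 grafts, and dendritic, B, T and NK cell markers, the Cd209 genes and Nlrc3 are lower in all 3.

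Of the cytosolic nucleic acid pathway, Mavs and Tmem173 were listed. Mavs, the mitochondrial adaptor of RNA helicase sensors, fell: 1069, 1068 and 1015 before grafting and 421.8, 382.1 and 412.5 in grafts (log2 fold change -1.37, SE 0.10, adjusted p = 3.1e-05). Tmem173 (STING), the receptor for the cyclic dinucleotide made on cytosolic DNA, rose: 763.2, 524.8 and 710.2 before grafting and 993.3, 1150.2 and 1152 in grafts (log2 fold change 0.74, SE 0.15, adjusted p = 0.011). The call of Tmem173 was lost with equal listed totals (0.61), with equal upper quartiles (0.55) and when scaled to ribosomal protein genes (0.04). Of 17 other genes of cytosolic nucleic acid sensing, 12 were listed and tested, 8 rose and 1 fell (median log2 fold change 0.69). The called share was 75.0%, below the 80.4% of all tested genes. Ikbke (2.46) and Tbk1 (1.08), the kinases that both pathways share, were among those that rose, as were Ifi204 (1.30) and Mb21d1 (1.29), the gene of the DNA sensor cGAS. Ifi203 fell by 1.85 on the log2 scale. The 8 rises became 4 with rescaling by median ratios, equal totals or equal upper quartiles, 2 when scaled to ribosomal protein genes, 4 without replicate 2 or 3 before grafting, 5 without graft replicate 2 and 5 with the replicate number as a block.

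Fpr2 and Fpr3 encode receptors of formylated peptides and other chemoattractants on phagocytes. Fpr2 held 8.9, 4.1 and 9.8 normalized counts before grafting and 2979, 3536 and 3762 in grafts (log2 fold change 8.71, SE 0.29, adjusted p = 1.39e-06), a ratio of means of 451. Fpr3 was at 0 reads in the 3 libraries before grafting and at 23.1, 30.1 and 27.7 normalized counts in grafts, at least 9.04-fold higher with 3 reads in each library as the floor. Fpr3 shares 48 exon bases with Fpr2 on the same strand and is a close copy of it, so its level is uncertain.

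Of 35 other pattern recognition and scavenger receptors, 22 were listed and tested, 13 rose and 6 fell (median log2 fold change 1.43). The called share was 86.4%, against 80.4% of all tested genes. Fpr1, the relative of Fpr2, had 1 read in all before grafting and a mean of 3833 normalized counts in grafts. Trem1, an amplifying receptor of myeloid cells, and Ptx3, a soluble pentraxin, rose by 9.47 and 7.61 on the log2 scale. Trem1 had 7 reads in all before grafting, and its mean there was 2.3, or 0.5 without replicate 3. Stab2, a hyaluronan scavenger receptor of sinusoidal endothelium, fell by 4.80, and Masp2, a protease of the lectin pathway, had a mean of 29.8 before grafting and 1 read in all in grafts. Macrophage markers moved with the myeloid members: 8 of 9 rose (Msr1 stands in both lists), and Mertk was not called. Their sum was 21924 to 24941 before grafting and 175196 to 195548 in grafts. Most of this sum was 1 gene, Lyz2, with 14069 to 16403 before grafting and 127416 to 142974 in grafts. Of 10 neutrophil markers 8 were listed and all 8 rose, with sums of 729.4 to 884.3 and 58340 to 93629. None of these listed markers was at 0 in a whole group. The part of macrophage and neutrophil numbers in the rise of Clec4e, Fpr2, Tlr2, Tlr13, Cd14 and the other myeloid members was not tested.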

How the data were processed

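Total RNA of mouse fat was extracted with Trizol and made into 6 Illumina libraries, per the labels' protocols. The submitters' processing notes name Bowtie 0.12.2, HISAT2 2.0.5, mm8 and mm9, while the coordinates of 12011 of 12151 listed genes found in GENCODE M21 (GRCm38) lie within 1000 bp of it. The sources used here do not give the gene counter or strand use. The deposited values are the authors' normalized counts, a signal in which every value is a whole number of reads (within 0.01 reads) divided by a factor for its library. Tests used limma 3.58.1 (R 4.3.3, trend and robust) on log2(value + 1) for genes at 10 or more in at least 3 libraries, two-sided. P-values were adjusted over 55462 genes, with unlisted genes at a p of 1. Python 3.11.15 was used for counts, promoter strings and exact binomial intervals. The fit was tested on simulated data. The members and lists were chosen with earlier results of these data known. Named genes are up to 4 called higher and 4 called lower in each role with the largest change, plus a fixed list of well-known members. Replicate numbers were not treated as pairs. Alternatives in scaling, filter, pseudocount, adjustment, model and libraries are given in the closing section. The values of 1 member are not reported here.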

Additional observations from a re-analysis of the deposited data

How the results depend on the processing

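Over all alternatives run, 28 to 39 members were called higher and 15 to 24 lower, against 35 and 22, with the fewest higher when libraries were scaled to ribosomal protein genes and the fewest lower when a mean of at least 50 was required, which tested fewer members. The median of tested members (1.17) was 1.04 with equal listed totals, 0.98 with equal upper quartiles, 1.06 with median ratio scaling, 0.47 after scaling to ribosomal protein genes and 1.40 with a mean of at least 50. The same 4 scalings moved the median of all tested genes from 0.28 to 0.15, 0.09, 0.17 and -0.42, and the share of higher calls among all calls from 51.3% to 43.6%, 41.4%, 44.7% and 27.3%. After scaling to ribosomal protein genes Nlrx1 (-0.28), Nod1 (-0.38) and Ticam1 (-0.20) reversed, and 7 members lost their call. In that setting 9 genes of the Toll-like receptor signalling list were called higher (19 as reported). In that list 1 gene was called lower (0 as reported) under this and the other 3 scalings and with adjustment over tested genes, and 0 to 1 when leaving out single libraries. Under the same 5 settings the NOD and inflammasome list and the cytosolic nucleic acid list each had 2 lower calls (1 as reported), and 1 to 2 when leaving out single libraries. The cytosolic list had 4 higher calls (8 as reported) with equal totals, equal upper quartiles or median ratios, 2 after scaling to ribosomal protein genes, 5 without trend and robust fitting, and 4 to 8 when leaving out single libraries. Same-numbered libraries of the 2 groups had correlations of -0.157, -0.127 and 0.041, beside -0.066 to 0.169 for libraries of different number. These are correlations of deviations from group means of 3 libraries, so they cannot decide whether same-numbered libraries share a donor or batch. The labels do not say. With the replicate number as a block 34 members were called higher and 21 lower, Clec4a4 and Clec1b lost their calls, and the cytosolic list had 5 higher calls. The causes of these changes were not tested. The 2 planned count-model alternatives were not run, because whole reads, although recoverable, did not pass the check of units for 2 graft libraries whose scaling factors lie close to 1. Depth limited Clec2l and Nlrp6, with 1 and 0 reads before grafting, and Clec4g, with 1 read in grafts.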

Other observations

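Markers of cells other than leukocytes and adipocytes differed less evenly. Of 9 blood endothelial markers 5 were listed, 4 of them fell, and their sum was 12342 to 15345 before grafting and 4807 to 5973 in grafts. Lymphatic endothelial markers divided, with Prox1 (-3.86), Lyve1 (-3.31), Reln (-1.80) and Mmrn1 (-4.87; graft mean 24.6, or 16.3 without graft replicate 1) lower and Pdpn, the ligand of Clec1b, higher (4.85). Among 7 listed markers of mesenchymal progenitors and fibroblasts 3 rose and 2 fell. Of the 4 listed platelet markers Pf4 (3.82), Ppbp (5.79) and Treml1 (1.86) rose while Itga2b fell (-1.69). Without graft replicate 1 the graft mean went from 6546 to 4232 normalized counts for Pf4 and from 1247 to 594.0 for Ppbp. The platelet receptor gene Clec1b had the value given above. Of the 4 listed mast cell markers none was called by limma, with log2 fold changes of -2.33 to -1.45 and adjusted p-values of 0.0725 to 0.267. Before grafting, replicate 2 was the lowest library for 37 of the 65 members, replicate 3 for 20 and replicate 1 for 5. In grafts the numbers were 31 for replicate 1, 14 for replicate 2 and 19 for replicate 3.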
